A study of Mus musculus with 6 samples.

Results

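The T-box genes examined here are Tbx1, Tbx2, Tbx3, Tbx4, Tbx5, Tbx15, Tbx18 and Tbx20, 8 of the 29955 genes in the deposited expression table, matched by symbol. The data are RNA-seq of mouse embryonic fibroblasts (MEFs), primary fibroblasts grown from embryos, with and without Rnf40, one subunit of the ubiquitin ligase that places monoubiquitin on histone H2B. The 3 Rnf40+/+ cultures and the 3 Rnf40-/- cultures were all at passage 3. The Rnf40-/- cells had received 250 nM 4-hydroxytamoxifen (4-OHT) for 5 days and had then been kept without it for 3 days. Per its methods, the study generated MEFs from embryos homozygous for loxP-flanked Rnf40 with a Cre recombinase expressed from the Rosa26 locus, which 4-OHT activates. The labels give the control cultures as Rnf40+/+ without naming these alleles, and whether the sequenced controls received 4-OHT is not stated, so the deletion and the treatment cannot be told apart. They also do not say that the cultures came from separate embryos, and p-values therefore measure the spread between these cultures.

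T-box factors are transcription factors that share a conserved DNA-binding domain, the T-box. Many of them give embryonic mesenchyme its regional identity. Tbx5 is needed for the forelimb and the heart, Tbx4 for the hindlimb and the lung, Tbx1 for the pharyngeal arches, Tbx15 and Tbx18 for dermis, skeleton, somites and epicardium, and Tbx20 for the heart. Tbx2 and Tbx3 act mostly as repressors and are known for repressing inhibitors of the cell cycle. Tbx2 and Tbx4 lie side by side on one chromosome and Tbx3 and Tbx5 side by side on another, as the products of an ancient duplication. Cultured fibroblasts often keep the T-box genes of the body region they came from.

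All 8 genes were expressed in both genotypes, and 1 of them, Tbx1, passed the test, with a level 1.40 times higher in Rnf40-/- MEFs (95% interval 1.10 to 1.79). The other 7 did not pass. Each gene's level is given as its normalized count, which is the number of reads divided by one size factor per library. Genotypes were compared by limma after adding 1 to each value and taking log2, and a gene was called at an adjusted p under 0.05 over the 16378 genes tested. By this test 47.4% of all genes tested were called, 23.3% of them as higher and 24.1% as lower in Rnf40-/- MEFs. Among genes with a mean in the range of the T-box genes, from 30.6 to 1631, the share called was 48.4%. The 1 call among 8 genes is below this background share, and nothing particular to the family is read from it. With a fold change above 2 and a mean above 15 as further criteria, 9.67% of genes and none of the 8 T-box genes were called. For all 8 the 95% interval of the fold change lay inside 2-fold in either direction, which held for 70.9% of the genes tested. The median log2 fold change was 0.01 over the 8 genes and -0.0035 over all genes.

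The libraries held between 17053436 and 26344170 reads on genes, and 3 reads, the level taken as the limit of detection, correspond to a normalized count of 2.40 to 3.58. Rnf40 itself had normalized counts of 1278, 1195 and 1096 in Rnf40+/+ and of 439, 519 and 487 in Rnf40-/- libraries, a log2 fold change of -1.30 (SE 0.09, limma adjusted p = 4.25e-07). In the study's design the loxP sites flank exons 3 and 4 of Rnf40, and which exons gave the remaining reads was not tested. By western blot the study reports effective deletion and loss of monoubiquitin on histone H2B. Of 8 fibroblast markers all were detected in every library, while their summed level was 663200 to 733900 in Rnf40+/+ and 396500 to 399300 in Rnf40-/- libraries, with 7 of 8 lower. All 8 markers of cycling cells were lower, with a summed level of 3743 to 4732 against 664 to 795. In total RNA of whole cultures, fewer cells of a type and less RNA per cell cannot be told apart. The summed levels of markers of other cell types were lower than that of the fibroblast markers. Single genes could be higher, as Lyz2 of the macrophage list (2093 to 7440) against the fibroblast gene Dcn (1137 to 1837). Over all genes tested, 23.3% were called higher and 24.1% lower. The counts called below are not read as results about a cell type. For 7 macrophage markers the sum was 5528 to 11020 against 3427 to 3810, with 3 lower and 1 higher. For 5 endothelial markers it was 138 to 280 against 225 to 315, with 3 higher and 1 lower, and for 5 mesothelial markers 444 to 822 against 829 to 1022, with 2 of 4 tested higher. For 7 cardiomyocyte markers it was 329 to 570 against 339 to 589, with 2 of 4 tested lower. For 7 skeletal muscle markers it was 1712 to 4887 against 438 to 498, with both tested genes lower. The sum over 6 epithelial markers was 33.7 to 108 against 39.7 to 64.2, with none of 3 tested called, and over 4 neural markers 3253 to 4662 against 2247 to 2597, with 1 of 3 tested lower. Their part in the T-box values was not tested.

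**Figure D1:**
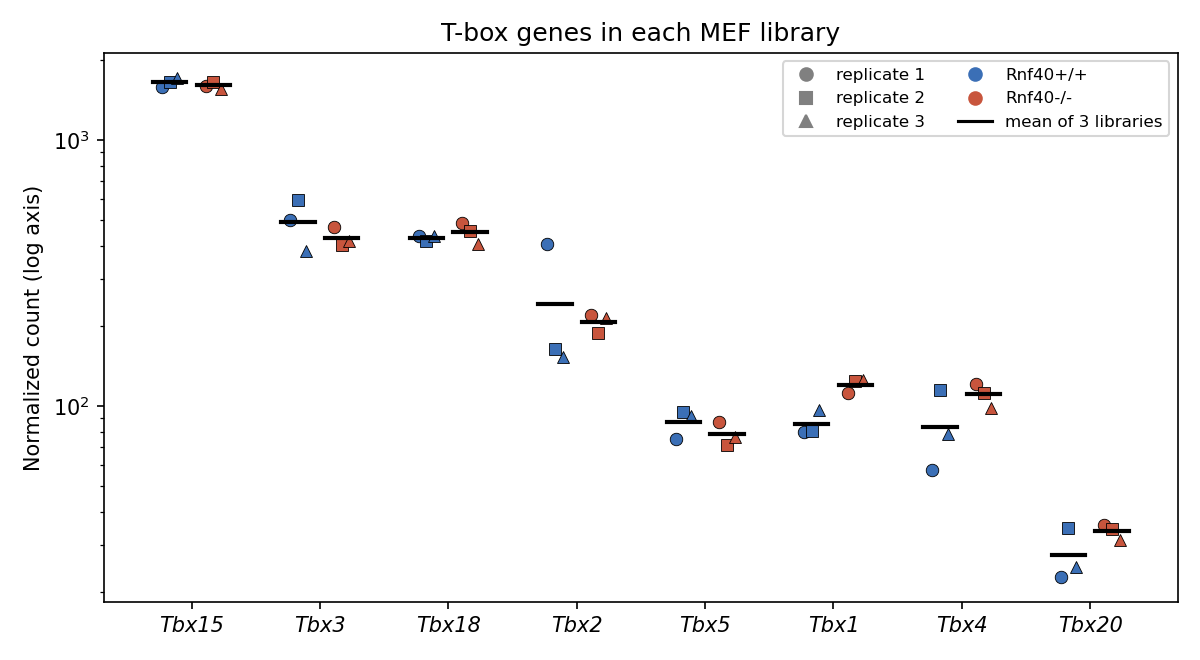
Normalized count of each T-box gene (log axis) in each library, with 1 point per culture for Rnf40+/+ and Rnf40-/- MEFs and a horizontal line at the mean of 3. Tbx15 lies highest and Tbx20 lowest in both genotypes, the points of Tbx1 do not overlap between genotypes, and 1 Rnf40+/+ point of Tbx2 stands above all the others.

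Tbx1 (ENSMUSG00000009097), a regulator of pharyngeal arch and outflow tract development and a central gene of the 22q11 deletion syndrome region in humans, lies on the minus strand at chr16:18581806-18588113 (mm9). The Rnf40+/+ cultures had normalized counts of 80.0, 80.6 and 96.6, and the Rnf40-/- cultures had 112, 124 and 125. Every Rnf40-/- library was thus above every Rnf40+/+ library, a separation that 56.5% of all genes tested showed in one direction or the other. The means were 85.7 ± 9.44 and 120.3 ± 7.08 (SD, n = 3 each), with a log2 fold change of 0.49 (SE 0.16, 95% interval 0.14 to 0.84, limma adjusted p = 0.0249). These values rest on 67 to 132 reads per library. Without Rnf40+/+ replicate 1 or 2, or without Rnf40-/- replicate 2 or 3, the log2 fold change was 0.44, 0.45, 0.46 and 0.46, and limma adjusted p was 0.0566, 0.0693, 0.0759 and 0.077. The Wald test of DESeq2 gave an adjusted p of 0.059. The direction was the same in each of these fits, but the call is close to its threshold.

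The Tbx1 promoters are shown because Tbx1 is the T-box gene that was called, and that of Tbx18 as the one with the highest level among those with an entry in the RefSeq promoter table. The entries run from 250 bases before to 50 bases after an annotated start (build GRCm38.p6, 5′ to 3′ on the gene's strand), and capitals mark CpG dinucleotides. RefSeq gives 2 such starts for Tbx1, on the minus strand at chr16:18588850-18589149 and chr16:18590622-18590921, and for Tbx18 one on the minus strand at chr9:87731211-87731510.
Tbx1 first entry: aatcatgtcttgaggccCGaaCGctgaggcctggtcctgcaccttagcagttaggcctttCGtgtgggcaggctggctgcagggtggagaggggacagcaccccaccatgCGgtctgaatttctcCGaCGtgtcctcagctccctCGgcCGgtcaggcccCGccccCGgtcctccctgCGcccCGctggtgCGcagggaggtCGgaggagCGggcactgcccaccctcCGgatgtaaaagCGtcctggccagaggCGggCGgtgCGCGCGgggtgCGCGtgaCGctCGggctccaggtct
Tbx1 second entry: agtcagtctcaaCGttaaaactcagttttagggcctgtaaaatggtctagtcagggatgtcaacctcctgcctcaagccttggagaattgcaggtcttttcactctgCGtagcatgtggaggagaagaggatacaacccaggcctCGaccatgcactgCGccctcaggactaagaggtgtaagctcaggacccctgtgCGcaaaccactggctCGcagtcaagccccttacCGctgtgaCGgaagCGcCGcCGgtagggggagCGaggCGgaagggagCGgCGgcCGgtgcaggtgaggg
Tbx18: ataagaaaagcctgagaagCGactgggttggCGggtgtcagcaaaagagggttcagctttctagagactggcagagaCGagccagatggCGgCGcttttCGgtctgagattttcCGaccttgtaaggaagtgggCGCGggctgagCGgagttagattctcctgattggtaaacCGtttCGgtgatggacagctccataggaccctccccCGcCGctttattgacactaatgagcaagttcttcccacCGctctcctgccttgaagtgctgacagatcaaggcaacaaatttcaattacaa
The first Tbx1 entry holds 26 CpG, a number that 16.9% of 32851 promoters in the table reach. The second holds 16, reached by 33.0%, and that of Tbx18 holds 15, reached by 34.6%, against a median of 7 over all promoters. Entries were also found for Tbx20, with 26 CpG, and for Tbx4, with 8, so that 4 of the 8 genes had one. No entry was used for Tbx2, Tbx3, Tbx5 and Tbx15. A consensus T-box binding sequence, AGGTGTGA, is present on either strand in 1.28% of all promoters of this length, and the core GTGTGA that it contains in 14.5%. Neither string occurs in the 5 entries of the T-box genes.

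The repressors Tbx2 and Tbx3 were not called. Tbx2 (ENSMUSG00000000093, plus strand, chr11:85646053-85655450, mm9) had normalized counts of 408, 163 and 153 in Rnf40+/+ and of 219, 188 and 213 in Rnf40-/- libraries. Rnf40+/+ replicate 1 was 2.68 times the lowest library of its group, and the Rnf40-/- values fell between it and the remaining Rnf40+/+ libraries. The coefficient of variation in Rnf40+/+ was 60.0%, where read counting alone gives 6.58%, while it was 8.07% in Rnf40-/- MEFs. The means of 241 ± 145 and 207 ± 16.7 (SD, n = 3) differed by -0.07 on the log2 scale (SE 0.29, 95% interval -0.70 to 0.56, limma adjusted p = 0.86). Without Rnf40+/+ replicate 1 the difference had the opposite sign, 0.39, with a limma adjusted p of 0.0391. The direction for Tbx2 therefore depends on a single culture. The same library also held the highest values of Acta1, with 4449, 1905 and 1592 in Rnf40+/+ and 453, 409 and 440 in Rnf40-/- libraries, and of Des, with 431, 127 and 114 against 35.7, 27.1 and 42.5. Both encode proteins of the contractile and filament system of muscle. Single markers of other cell types were high in this library too, but others from the same lists were not. Tek, an endothelial receptor gene, had 115 there against 11.2 and 16.0 in the other Rnf40+/+ libraries, and Krt8, an epithelial keratin gene, 58.5 against 1.02 and 9.58. Tubb3, a neural tubulin gene, had 2670 against 1275 and 1353. By contrast, Kdr of the endothelial list had 21.5 there against 26.5 and 34.3. Krt18 of the epithelial list had 22.7 against 18.4 and 27.95, and Nes of the neural list 1953 against 2511 and 1866. Myod1, which specifies skeletal muscle, had no read in any library, and the part of other cell types in the Tbx2 value was not tested.

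Tbx3 (ENSMUSG00000018604, plus strand, chr5:120120678-120134733, mm9), which is mutated in ulnar-mammary syndrome, had normalized counts of 499, 598 and 382 in Rnf40+/+ and of 470, 402 and 416 in Rnf40-/- libraries. The 3 Rnf40-/- values lay within the range of the Rnf40+/+ values. Means were 493 ± 108 and 429 ± 36.0 (SD, n = 3), and the log2 fold change was -0.18 (SE 0.14, 95% interval -0.49 to 0.13, limma adjusted p = 0.33). Without Rnf40+/+ replicate 3, the lowest library, it was -0.35 with a limma adjusted p of 0.0175. An antisense gene, Gm2301, overlaps Tbx3 in the annotation and had no row in the table. The library kit was directional, but the sources used here do not state whether the counting used strand.

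Neither Tbx4 nor Tbx5, the genes of limb type, was called, and their point estimates had opposite signs. Tbx4 (ENSMUSG00000000094, plus strand, chr11:85699924-85729599, mm9) had normalized counts of 57.3, 115 and 78.3 in Rnf40+/+ and of 121, 112 and 98.2 in Rnf40-/- libraries. Replicate 2 of Rnf40+/+ lay among the Rnf40-/- values and the other Rnf40+/+ libraries below them. With means of 83.6 ± 29.3 and 110.4 ± 11.6 (SD, n = 3), the log2 fold change was 0.45 (SE 0.23, 95% interval -0.06 to 0.96, limma adjusted p = 0.135). It was 0.71 with a limma adjusted p of 0.023 without Rnf40+/+ replicate 2, and 0.21 without Rnf40+/+ replicate 1. The point estimate for Tbx4 was close to that of Tbx1, with a wider spread between Rnf40+/+ cultures.

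Tbx5 (ENSMUSG00000018263, plus strand, chr5:120284672-120335227, mm9) had normalized counts of 75.2, 94.8 and 91.8 in Rnf40+/+ and of 86.7, 71.0 and 76.5 in Rnf40-/- libraries, and the groups overlapped. Its means were 87.3 ± 10.6 and 78.0 ± 7.97 (SD, n = 3), a log2 fold change of -0.16 (SE 0.18, 95% interval -0.55 to 0.24, limma adjusted p = 0.5). Both the forelimb and the hindlimb gene were thus read in every culture.

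Tbx15 and Tbx18 were the most evenly expressed of the 8 genes across the Rnf40+/+ cultures. Tbx15 (ENSMUSG00000027868, plus strand, chr3:99044304-99158182, mm9), which acts in dermis, skeleton and adipose tissue, had normalized counts of 1592, 1651 and 1716 in Rnf40+/+ and of 1601, 1664 and 1564 in Rnf40-/- libraries. With 1333 to 2149 reads per library it was the most deeply measured member, and its coefficient of variation was 3.76% in Rnf40+/+ and 3.14% in Rnf40-/- MEFs. The means of 1653 ± 62.1 and 1609 ± 50.5 (SD, n = 3) gave a log2 fold change of -0.04 (SE 0.07, limma adjusted p = 0.656). Its 95% interval of -0.18 to 0.10 is the narrowest of the 8 and leaves room only for small changes.

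Tbx18 (ENSMUSG00000032419, minus strand, chr9:87597635-87626095, mm9), a close paralog of Tbx15 that marks the epicardium and patterns somites, had normalized counts of 437, 419 and 434 in Rnf40+/+ and of 487, 455 and 407 in Rnf40-/- libraries. The Rnf40-/- values spread on both sides of the Rnf40+/+ values. The means were 430.2 ± 9.70 and 449.8 ± 40.5 (SD, n = 3), and the log2 fold change was 0.06 (SE 0.09, 95% interval -0.15 to 0.27, limma adjusted p = 0.629).

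Tbx20 (ENSMUSG00000031965, minus strand, chr9:24527648-24578746, mm9), a cardiac regulator, was the lowest of the 8 genes. It had normalized counts of 22.7, 34.7 and 24.8 in Rnf40+/+ and of 35.7, 34.4 and 31.2 in Rnf40-/- libraries, from 19 to 35 reads each. Counting alone gives a coefficient of variation of 18.9% and 17.2% at this depth. The means of 27.4 ± 6.41 and 33.8 ± 2.34 (SD, n = 3) gave a log2 fold change of 0.31 (SE 0.27, 95% interval -0.28 to 0.91, limma adjusted p = 0.371). The interval includes both no change and a rise of close to 2-fold. Of the 7 cardiomyocyte markers, Nkx2-5 was at 0 in 5 of 6 libraries, and Myh6 and Myh7 had too few reads for a test. Tnnt2 (62.1 to 135), Actn2 (208 to 417), Tnni3 (13.2 to 46.6) and Ryr2 (7.31 to 31.1) were read in every library. The part of heart muscle cells in the Tbx20 values was not tested.

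**Figure D2:**
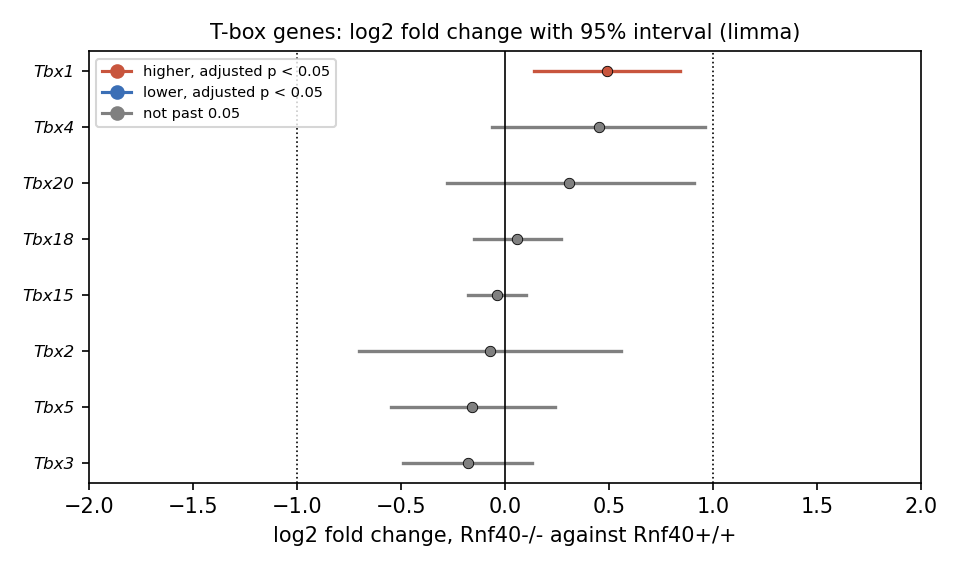
Log2 fold change of each T-box gene in Rnf40-/- against Rnf40+/+ MEFs, with the 95% interval of limma (3 libraries per genotype), and dotted lines at a 2-fold change either way. All 8 intervals lie between the dotted lines, and that of Tbx1, 0.14 to 0.84, is the one of a called gene.

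**Figure D3:**
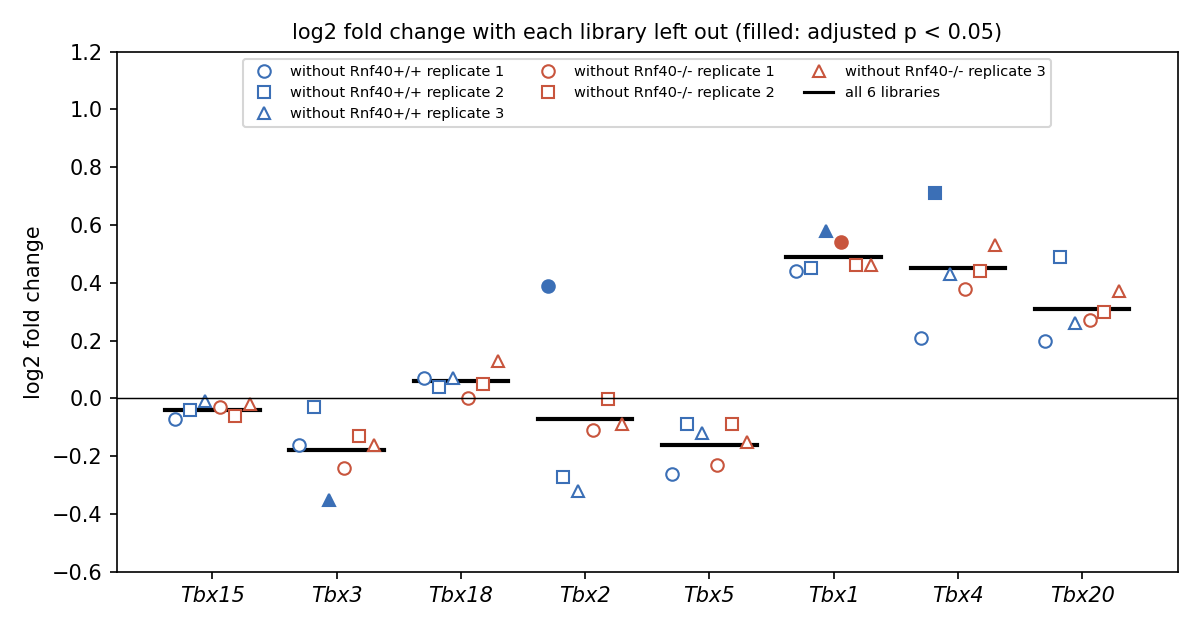
Log2 fold change of each T-box gene with all 6 libraries and after removal of any 1 of them; the line is the value from all 6 libraries, each symbol the value without 1 library, and filled symbols have an adjusted p under 0.05. Tbx2 runs from -0.32 to 0.39 and crosses 0, whereas Tbx1 stays between 0.44 and 0.58.

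Levels of different genes were compared per kilobase of annotated exon. In Rnf40+/+ MEFs Tbx15 was highest with 441 ± 16.6 normalized counts per kb (SD, n = 3). It was followed by Tbx3 (91.9 ± 20.1), Tbx18 (91.9 ± 2.07), Tbx2 (66.6 ± 39.9) and Tbx1 (47.3 ± 5.21), and then by Tbx4 (24.6 ± 8.62), Tbx5 (22.2 ± 2.68) and Tbx20 (6.09 ± 1.42). Neighbours in this order from Tbx3 to Tbx1, and Tbx4 and Tbx5, had overlapping ranges, while Tbx15 stood above the rest and Tbx20 below. In Rnf40-/- MEFs the order was Tbx15 (430 ± 13.5), Tbx18 (96.1 ± 8.65), Tbx3 (80.0 ± 6.70), Tbx1 (66.4 ± 3.91), Tbx2 (57.0 ± 4.60), Tbx4 (32.5 ± 3.42), Tbx5 (19.8 ± 2.02) and Tbx20 (7.51 ± 0.521). Of the neighbours in this order only Tbx18 and Tbx3 overlapped. Tbx1 ranked above Tbx2 in Rnf40-/- and below it in Rnf40+/+ MEFs, where 1 library of Tbx2 stood apart. Exon lengths were taken from the annotation and not from the transcripts in use, so an order between genes within a few fold is approximate.

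Neither gene of either linked pair was called. Tbx2 and Tbx4 lie 44.5 kb apart and had log2 fold changes of -0.07 and 0.45, and Tbx3 and Tbx5, 149.9 kb apart, had -0.18 and -0.16. Of 12 other genes that flank the 8 T-box genes, 10 were tested, 2 were called higher, 1 lower and 7 were not called, where 47.4% of all genes were called. Gp1bb, which encodes a platelet glycoprotein chain, lies 32.3 kb from Tbx1 and was lower, with normalized counts of 338, 302 and 373 in Rnf40+/+ and of 108, 112 and 114 in Rnf40-/- libraries (log2 fold change -1.59, SE 0.13, limma adjusted p = 1.24e-06). Tbx1 was called in the other direction. Gp1bb overlaps the gene Sept5 on the same strand, and the counting could have split their reads, so its value is uncertain. Bcas3, 6.5 kb from Tbx2, was higher by 0.28 (SE 0.09, limma adjusted p = 0.0242), but without Rnf40-/- replicate 1 or 3 its adjusted p was 0.081 and 0.108. Med13l, a Mediator gene 905.2 kb from Tbx3, was higher by 0.35 (SE 0.08, limma adjusted p = 0.00271). Wars2, 1.2 kb from Tbx15, was not called, with -0.05 (95% interval -0.29 to 0.19, limma adjusted p = 0.735).

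Of the 9 other T-box family genes in the table, 3 were tested. Eomes (Tbr2), which drives endoderm and trophoblast formation, rose in Rnf40-/- MEFs. Its normalized counts were 78.8, 58.1 and 75.1 in Rnf40+/+ and 142, 190 and 180 in Rnf40-/- libraries, without overlap, and the log2 fold change was 1.26 (SE 0.18, 95% interval 0.87 to 1.65, limma adjusted p = 0.000133). Of all genes tested, 56.5% did not overlap between genotypes and 23.3% were called higher. Eomes was past the test with any single library left out, with values from 1.13 to 1.39. Mga, a Max-binding protein that carries a T-box, had 774, 801 and 864 against 1006, 956 and 865, and the lowest Rnf40-/- library was level with the highest Rnf40+/+ one. Its log2 fold change of 0.21 (SE 0.08) was just outside the test with a limma adjusted p of 0.0513. Tbx6, a somite gene, was low and not called, with a log2 fold change of -0.09 (SE 0.48, limma adjusted p = 0.89). Brachyury (T), the gene that gave the family its name, had no read in any library, and Tbx10, Tbx19, Tbx21, Tbx22 and Tbr1 had too few for a test.

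Among 36 genes that work with T-box factors or pattern the same regions, 28 were tested, 10 fell, 3 rose and 15 did not pass. The 13 calls among 28 are close to the background of 47.4%, of which 24.1% were lower and 23.3% higher. Their median log2 fold change was -0.27, against -0.0035 over all genes. The list was chosen with earlier results of these data known, so no shift of these genes is read from the median. Fgf10, the mesenchymal growth factor that Tbx5 and Tbx4 switch on in limb and lung buds, had normalized counts of 868, 1027 and 768 in Rnf40+/+ and of 507, 412 and 436 in Rnf40-/- libraries. Its groups did not overlap, as for 56.5% of all genes tested, and it fell by 0.97 on the log2 scale (SE 0.11, limma adjusted p = 3.01e-05). Meis1, a homeobox gene of the proximal limb, fell by 0.95 (SE 0.09, limma adjusted p = 7.26e-06), with counts of 689, 630 and 717 against 347, 380 and 327. Prrx1, the homeobox gene that marks limb and craniofacial mesenchyme, fell by 0.71 (SE 0.07, limma adjusted p = 7.63e-06), from a mean of 9166 ± 753 to 5589 ± 98.0 (SD, n = 3). Mef2c, a muscle and heart factor, fell by 0.62 (SE 0.19, limma adjusted p = 0.0187), and its adjusted p was 0.0615 without Rnf40+/+ replicate 1 (log2 fold change -0.37) and 0.0621 without Rnf40-/- replicate 1.

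The 3 that rose had lower counts. Wnt2, a lung mesenchyme ligand, had 92.0, 66.3 and 46.3 in Rnf40+/+ and 147, 103 and 203 in Rnf40-/- libraries, a log2 fold change of 1.14 (SE 0.28, limma adjusted p = 0.00492). Hand2, a factor of posterior limb and heart, rose by 0.71 (SE 0.24, limma adjusted p = 0.0273). Isl1, a factor of hindlimb and second heart field progenitors, rose by 1.50 (SE 0.48, limma adjusted p = 0.0217) from counts of 3.58, 7.14 and 3.99 to 11.2, 13.6 and 22.7, close to the limit of detection. The size of the Isl1 change depends on the constant added before the logarithm, and was 0.78 with 10 and 1.67 with 0.1 in place of 1. The calls of Hand2 and Isl1 did not hold in every fit with a library left out. For Hand2 the adjusted p was 0.0757 and 0.107 without Rnf40+/+ replicate 1 or 2, and 0.104 and 0.0877 without Rnf40-/- replicate 1 or 3. For Isl1 it was 0.052 and 0.112 without Rnf40-/- replicate 2 or 3. Pitx1, the hindlimb homeobox gene that acts with Tbx4, was not called, with a log2 fold change of 0.48 (SE 0.21, limma adjusted p = 0.0804).

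**Figure D4:**
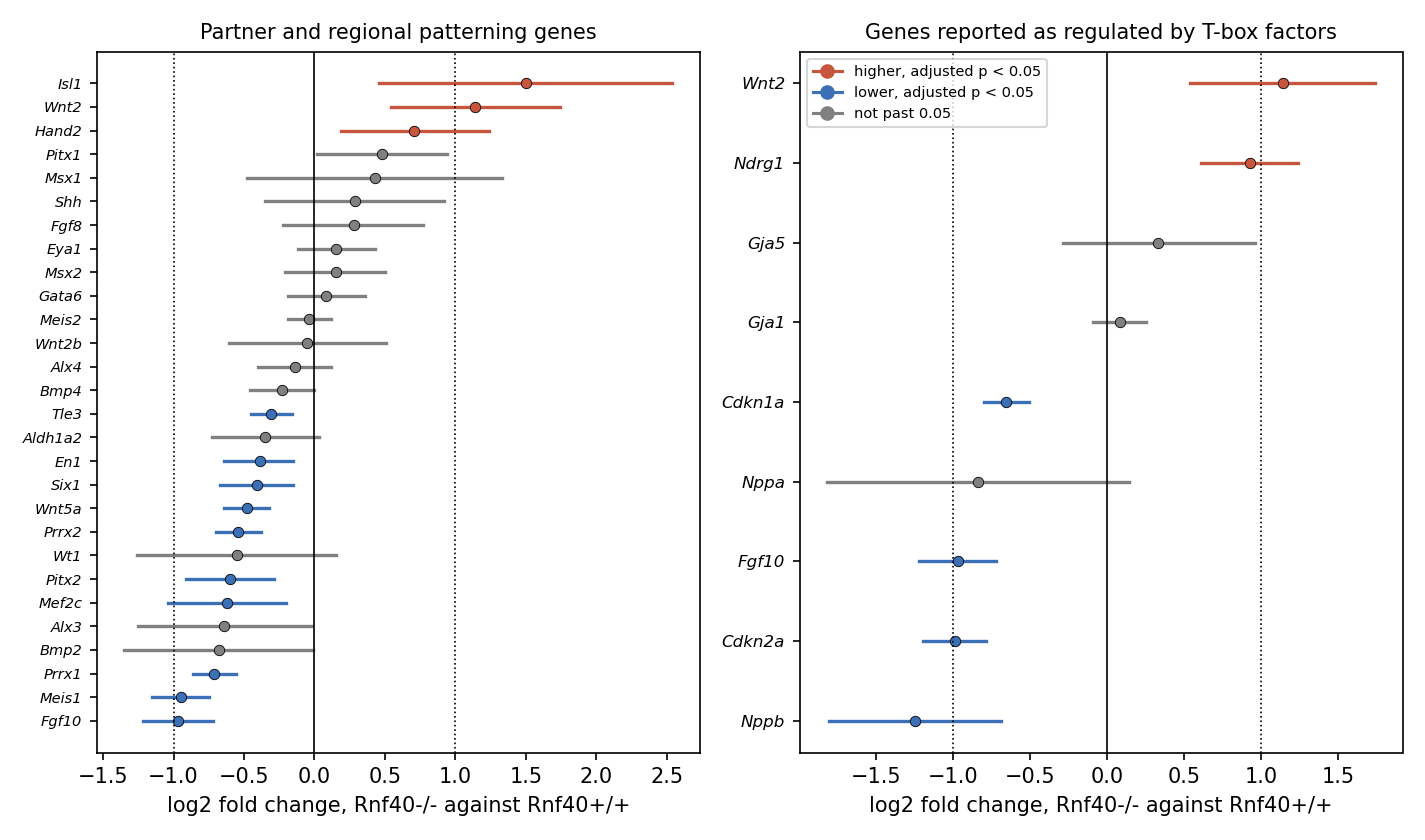
Log2 fold change in Rnf40-/- against Rnf40+/+ MEFs with its 95% interval (limma, 3 libraries per genotype), left for the 28 tested partner and patterning genes and right for the 9 tested genes reported as regulated by T-box factors; color marks genes called higher or lower, gray those not called. On the left 10 genes lie lower and 3 higher, from -0.97 for Fgf10 to 1.50 for Isl1, and on the right 4 lie lower and 2 higher.

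Of 13 genes described elsewhere as regulated by T-box factors, 9 were tested, 4 fell, 2 rose and 3 did not pass, against 47.4% of all genes called. The list is not complete, so its median is not given. The calls held in each of the 6 fits with a library left out. The cell-cycle inhibitors Cdkn1a (p21) and Cdkn2a (which encodes p16 and p19Arf), both known as targets of repression by Tbx2 and Tbx3, fell. Cdkn1a had normalized counts of 13560, 14880 and 14640 in Rnf40+/+ and of 8930, 8937 and 9466 in Rnf40-/- libraries, and fell by 0.66 on the log2 scale (SE 0.07, limma adjusted p = 8.2e-06). Cdkn2a had 6039, 7039 and 7530 against 3547, 3056 and 3738, and fell by 0.99 (SE 0.09, limma adjusted p = 4.91e-06). Of all genes tested, 24.1% were called lower. Neither Tbx2 (log2 fold change -0.07, SE 0.29) nor Tbx3 (-0.18, SE 0.14) was called, which does not show that they were unchanged. Whether Tbx2 or Tbx3 had a part in the fall of Cdkn1a and Cdkn2a was not tested. Nppb, a natriuretic peptide gene that cardiac T-box factors control, fell by 1.25 (SE 0.26, limma adjusted p = 0.00174), with 147, 122 and 83.9 against 59.1, 34.4 and 52.9. Fgf10, given above, is the fourth. Ndrg1, a stress and differentiation gene, rose by 0.93 (SE 0.14, limma adjusted p = 0.000253), with 478, 405 and 661 against 917, 924 and 1041. Wnt2, given above, is the other gene that rose. The 3 genes that did not pass were Gja1 (log2 fold change 0.08), Gja5 (0.33) and Nppa (-0.84), which Tbx2 and Tbx3 repress in the heart, and Cdh1 had too few reads for a test.

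For each T-box gene the genes with the most similar course over the 6 libraries were sought among 15498 tested genes with a mean of at least 15, by the Euclidean distance between log2 profiles centred on their own mean. These are descriptions over 6 libraries that share depth and genotype. Nearest to Tbx1 were Cd38 (distance 0.0826), Cyth1 (0.0887) and Epb4.1l4a. Those nearest to Tbx2 were H2-Q9 (0.170), Zfyve28 (0.298) and mimp3 (0.321), each with its highest value in Rnf40+/+ replicate 1. For H2-Q9 that library had a normalized count of 62.1, and the other Rnf40+/+ libraries had 24.5 and 24.0. Choosing genes by distance to Tbx2, which peaked in that library, favours such genes, so the shared peak is not a separate result. Nearest to Tbx3 were Nkain2, AK030777 and Hdmcp, to Tbx4 Elmo3, Zfat and Plscr4, and to Tbx5 Wdr55, Nicn1 and Galc. Tbx15 ran closest to Ncam1 (0.0499), Tbk1 and Rgp1, Tbx18 to Gm14296, Zfp523 and Baiap2l1, and Tbx20 to Gm8979, Mkx and Lrrc24. No T-box gene was among the nearest 3 of another. With 15498 genes to draw from, this says little about whether the T-box genes vary together.

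The study's own lists of genes by chromatin state name several members. In the copies used here, Tbx2, Tbx5 and Tbx20 are listed as targets of the Polycomb methyltransferase EZH2, and Tbx3, Tbx5 and Tbx20 as genes with a broad domain of H3K4me3, a mark of active promoters. The copies hold fewer genes than the study gives, so a gene that they do not name may still belong to either list. None of these 4 genes was called here, and the called gene, Tbx1, is in neither copy. The study's lists of genes with decreased H3K27me3, the mark EZH2 places, and with sharp H3K4me3 peaks were not searched. The chromatin data themselves were not analysed here.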

How the data were processed

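RNA-seq of 3 Rnf40+/+ and 3 Rnf40-/- MEF cultures was analysed. Per the study's methods, reads were mapped to mouse transcripts of mm9, and DESeq was used for normalization. The submitters' processing notes name Bowtie2 2.1.0 and DESeq 1.14.0, without roles. The deposited signal of a gene is thus its read count divided by one size factor per library. In each library 100% of values were whole multiples of 1 read (tolerance 0.01 read), so the reads were recovered (17053436 to 26344170 on genes). How reads were assigned to genes, and whether strand was used, is not given in the sources used here.

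Of 29955 genes, 7410 had no read and 16378 passed filterByExpr of edgeR (version 4.0.16). These were tested with limma (version 3.58.1; lmFit, eBayes with a trend) in R 4.3.3 on log2(deposited value + 1), with a term for genotype, and p-values were adjusted by Benjamini-Hochberg across the 16378 genes. Adding 1 shrinks the changes of genes with few reads. No exact permutation test is given, since with 3 against 3 its p is at least 0.1. Alternatives were pseudocounts of 0.1 and 10, no filter, at least 10 reads in every library, TMM, DESeq2 (version 1.42.0) and upper-quartile scaling, the edgeR quasi-likelihood and DESeq2 Wald tests on recovered reads, a replicate block, and each library left out. The fit was tested on simulated data with 200 changed genes. There limma recovered 59 of 89 genes with a log2 change of 1 in either direction and 106 of 111 with 2. It made 17 false calls. Many more genes were called in the real data, so the simulation differs from them in this.

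No libraries were duplicates (chi-square per gene 5.31 to 28.3 within and 74.7 to 117 between genotypes). The T-box genes, the gene lists and the tests were chosen with earlier results of these data known. The rule for named genes took all 8 T-box genes and, from each list, the called genes with the 4 largest changes in either direction; Wars2, Pitx1, Mga, Tbx6, the uncalled genes reported as T-box targets and single markers were added after their values were seen. One gene of the list of reported T-box targets is not reported here and was left out of its counts. Genes at or near 0 are named where they define a cell type. Gene positions and exon lengths are from GENCODE vM1 (mm9), promoter sequences from RefSeq (GRCm38.p6). No coordinates were converted between builds.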

Additional observations from a re-analysis of the deposited data

How the results depend on the processing

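The number of T-box genes called was 1 in all but 5 of 17 alternatives, but the 1 gene was Tbx2 without Rnf40+/+ replicate 1 and Tbx4 without Rnf40+/+ replicate 2, in place of Tbx1. It was 0 with the Wald test of DESeq2 and 0 with a fold change above 2 and a mean above 15 added, and it ran from 0 to 2 when 1 library was left out, with Tbx1 and Tbx3 called without Rnf40+/+ replicate 3. Tbx2 reversed: its log2 fold change ran from -0.32 to 0.39 over these fits and was 0.39 without Rnf40+/+ replicate 1. For the other 7 genes the direction was the same in every alternative. Rnf40 stayed between -1.36 and -1.24 and past the test throughout. Counts of called genes in both directions together stayed within 1.5 times the values given for partners, reported targets and neighbours. By direction, partners called higher went from 3 to 1 without Rnf40-/- replicate 3, and neighbours called higher from 2 to 1 without Rnf40-/- replicate 1 or 3, and for the other T-box family genes 6 alternatives called 2 genes, Eomes and Mga. Same-numbered libraries did not deviate together (r = 0.012, 0.017 and 0.021), so the numbers are not taken as pairs. With a replicate block 8217 genes in place of 7764 were called and Tbx1 had a limma adjusted p of 0.0322. Leaving out a library removes a degree of freedom from an already small design, and 3 cultures per genotype limit the precision of Tbx2, Tbx4 and Tbx20 most.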

Other observations

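The high value of Tbx2 in Rnf40+/+ replicate 1 was not an isolated one. Among 15499 genes with a mean of at least 15, 184 were more than 2-fold above both other libraries of their genotype in Rnf40+/+ replicate 1. The number was 26 in Rnf40+/+ replicate 2, 131 in replicate 3, and 37, 25 and 21 in the Rnf40-/- libraries. Tbx2 was the one T-box gene among them. Nt5e, a neighbour of Tbx18 that encodes the mesenchymal surface enzyme CD73, had the same shape, with normalized counts of 475, 218 and 175 in Rnf40+/+ and of 302, 323 and 323 in Rnf40-/- libraries, and was not called (log2 fold change 0.26, SE 0.27, limma adjusted p = 0.454). Over all genes, Rnf40+/+ replicate 3 was the more distant library. Its chi-square per gene was 28.3 against replicate 1 and 25.6 against replicate 2, and that between replicates 1 and 2 was 7.85. Replicate 3 also held the most reads on genes, 26344170. A chi-square on reads can grow with depth, and the part of depth was not tested. What lies behind the high values in replicate 1 was not tested.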
